A study of Saccharomyces cerevisiae with 12 samples.

Results

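Nrd1-unterminated transcripts (NUTs) are stretches of yeast RNA that were annotated, in work outside these data, as transcripts that appear or grow longer when the Nrd1 protein is removed from the nucleus. The NUT rows of the count table that overlap no protein-coding row on the same chromosome and strand were taken here, which gave 1100 of the 1442 NUT rows and of the 12768 rows in all. No row carried the name newNUT, and 342 NUT rows were left out because a gene lay on their strand. The cells were the budding yeast Saccharomyces cerevisiae, grown in YPD, a rich medium, to an optical density of about 0.5 with no treatment. The pup2-ts strain carries a temperature-sensitive allele of PUP2, a subunit of the proteasome's core particle, in the genotype MATa his3Δ1 leu2Δ0 met15Δ0 ura3Δ0 with lys2Δ0, can1Δ::LEU2-MFA1pr::His3 and pup2-ts::URA3. The rpn5-ts strain carries rpn5-ts::URA3, an allele of a subunit of the regulatory particle's lid, beside the same other alleles. WT is MATa his3Δ1 leu2Δ0 met15Δ0 ura3Δ0, called By4741 in the names of replicates 3 and 4, and the labels give these 4 deletions to all 3 groups. Each mutant was 1 strain with 1 allele, and the growth temperature is not given in the sources used here. Both mutants differ from WT by lys2Δ0, the can1Δ cassette and the URA3 marker as well as by the ts allele, so these cannot be told apart. MET17, another name of MET15, was also expressed in every pup2-ts library and not in WT, against the met15Δ0 label, and cannot be told apart from the allele either. Each group had 4 libraries of polyadenylated RNA, which the series calls biological replicates. In a bulk culture, fewer cells holding an RNA and less of it per cell cannot be told apart either.

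Nrd1 and Nab3 bind short motifs in nascent RNA (GUAA or GUAG for Nrd1, UCUU or CUUG for Nab3) and, with the helicase Sen1, end transcription of small nucleolar RNAs and of many short non-coding RNAs. The released RNA is given a short tail by the TRAMP complex and is trimmed or destroyed by the nuclear exosome. In cells with working Nrd1 most such RNA is therefore short-lived, and the NUT coordinates mark where it would run on to without this pathway. Neither Nrd1 nor the exosome was altered by design in these strains.

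The 4 sequences that follow show what these regions look like at their start. NUT0088 and NUT0760 are among the members lower in both mutants, and NUT0336 and NUT0689 among those higher in both. The first 150 bases are given 5′ to 3′ as DNA on the strand of the transcript, from the R64 (sacCer3) genome of RefSeq, with the Nrd1 motifs GTAA and GTAG and the Nab3 motifs TCTT and CTTG in capitals. The stretches are chrIV:57014-57163, chrXVI:76656-76805, chrVIII:198591-198740 and chrXV:202703-202852, all on the plus strand.
NUT0088: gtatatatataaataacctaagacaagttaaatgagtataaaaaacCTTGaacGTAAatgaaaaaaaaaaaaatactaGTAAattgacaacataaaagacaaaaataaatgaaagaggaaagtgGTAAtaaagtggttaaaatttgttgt
NUT0760: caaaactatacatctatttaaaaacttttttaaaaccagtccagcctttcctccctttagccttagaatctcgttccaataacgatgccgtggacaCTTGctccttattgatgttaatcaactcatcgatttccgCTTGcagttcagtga
NUT0336: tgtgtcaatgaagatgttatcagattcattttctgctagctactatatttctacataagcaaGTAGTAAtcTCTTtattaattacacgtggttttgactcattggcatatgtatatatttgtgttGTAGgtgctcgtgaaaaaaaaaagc
NUT0689: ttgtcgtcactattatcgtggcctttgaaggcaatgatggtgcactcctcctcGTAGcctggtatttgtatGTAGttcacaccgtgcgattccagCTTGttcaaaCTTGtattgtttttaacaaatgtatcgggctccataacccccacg

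Over whole sets, the first 300 bases of the 1088 members long enough held GTAA in 78.6% of cases, GTAG in 65.3%, TCTT in 92.9% and CTTG in 86.3%, each counted on the transcript's strand with overlaps allowed. The same shares were 66.5%, 47.3%, 75.2% and 57.2% in the first 300 bases of 5739 protein-coding rows, and 76.2%, 54.7%, 83.2% and 67.7% in 6594 stretches of 300 bases between genes. On the opposite strand the members' shares were lower, at 71.3%, 49.6%, 81.1% and 66.8%. Protein-coding rows had the reverse pattern, with 73.6%, 62.0%, 94.4% and 84.1% on the strand opposite the gene. Most members lie opposite a gene, so their sense strand is to a large extent a gene's antisense strand. GC content was 38.1% in members, 39.4% in protein-coding rows and 37.4% between genes. A match is a stretch of letters, not a bound site.

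The libraries held 18.6 to 61.0 × 1e6 counts in protein-coding rows, and members took 55999 to 182622 counts per library, which is 0.234% to 0.520% of the protein-coding total. Levels are given in CPM, counts per 1e6 counts of protein-coding rows, adjusted by normalisation factors (TMM, trimmed mean of M values) from the same rows. The library labelled rpn5-ts replicate 1 goes against its labels. It had 212 CPM of LYS2 and 248 CPM of MET17 (MET15), against at most 0.180 CPM of LYS2 and 0.0901 CPM of MET17 in the other rpn5-ts libraries. All 4 pup2-ts libraries go against the met15Δ0 label too, with MET17 at 195 to 586 CPM, against at most 0.092 CPM in WT. The pup2-ts results cannot be had without them. Results of rpn5-ts are therefore given a second time with that library left out. URA3 and CAN1 followed the labels, with URA3 at means of 107 CPM in pup2-ts, 105 CPM in rpn5-ts and 4.05 CPM in WT, and CAN1 at 13.1 CPM in pup2-ts, 14.4 CPM in rpn5-ts and 192 CPM in WT. NUT0818, near the left end of chromosome I, had 0 counts in the library labelled rpn5-ts replicate 1 and at least 10 counts in each other library. Replicates 3 and 4 carry names of another form than replicates 1 and 2 in every group, and the libraries of each form stood apart. The tag DNAse is found in the former names alone. Its meaning for the handling of the libraries is not given in the sources used here.

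Members were 138 to 8088 bases long, with a median of 1546.5, and 583 were on the plus and 517 on the minus strand of the 16 chromosomes. Of them 898 lay opposite at least 1 protein-coding row. The other 202 had no protein-coding row on either strand, and are called members with no gene on either strand. Many share bases with other non-coding annotations on their strand. A row of the cryptic unstable transcripts (CUTs) overlapped 445 of them, a row of the stable unannotated transcripts (SUTs) 292, and no other non-coding row 211. Counts in such shared bases cannot be assigned to 1 annotation, and 13 members overlap another member.

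Members were low. Their median over all libraries was 0.976 CPM per kilobase, with quartiles of 0.414 and 2.28, against 41.0 CPM per kilobase for protein-coding rows, and 0 members exceeded that gene median. Per library, 825 to 1057 of the 1100 members held at least 10 counts. The 50 most abundant members held 28.0% of the member CPM. The highest was NUT1320 (chrXIII:761586-763113, minus strand) at 33.8 CPM per kilobase. It spans SNR86, a small nucleolar RNA (snoRNA). NUT1320 had 56.1, 58.5, 49.2 and 51.5 CPM in the pup2-ts libraries, 47.2, 56.8, 54.0 and 59.0 CPM in those of rpn5-ts, and 38.5, 50.7, 50.1 and 48.1 CPM in those of WT. The groups overlapped, and its log2 fold change in pup2-ts against WT was 0.20 (adjusted p = 0.23). Next per kilobase were NUT0671 (21.9), NUT0369 (19.8, opposite CAP2, a subunit of actin capping protein), NUT0490 (18.6, spanning SNR30), NUT0891 (18.5, spanning SNR63), NUT1381 (16.6), NUT0256 (16.5) and NUT0675 (16.2). Of these 8, NUT0671 passed the test in both mutants, and the others in neither.

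The summed level of the 1100 members was lower on average in the mutants than in WT. It was 2882, 3073, 2489 and 2598 CPM in pup2-ts replicates 1 to 4, 2914, 3341, 3192 and 3127 CPM in rpn5-ts, and 4413, 4506, 3299 and 3237 CPM in WT. All pup2-ts libraries lay below all WT libraries, whereas rpn5-ts replicate 2 lay above WT replicates 3 and 4. The means were 2760 ± 266 CPM in pup2-ts, 3144 ± 177 CPM in rpn5-ts and 3864 ± 690 CPM in WT (SD, n = 4 each), ratios to WT of 0.714 and 0.814. With the library labelled rpn5-ts replicate 1 left out, the rpn5-ts mean was 3220 ± 110 CPM (n = 3), a ratio of 0.833. Within replicates 3 and 4 the ratios were 0.778 for pup2-ts and 0.967 for rpn5-ts, and within replicates 1 and 2 they were 0.668 and 0.701. Scaled by all rows, the rpn5-ts ratio within replicates 3 and 4 was 1.04, so its direction there turned with the scaling. Without the 5 most abundant members the ratios were 0.710 and 0.814. For members opposite a gene they were 0.698 and 0.807, and for those with no gene on either strand 0.776 and 0.837, with an rpn5-ts ratio of 1.03 within replicates 3 and 4.

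**Figure D1:**
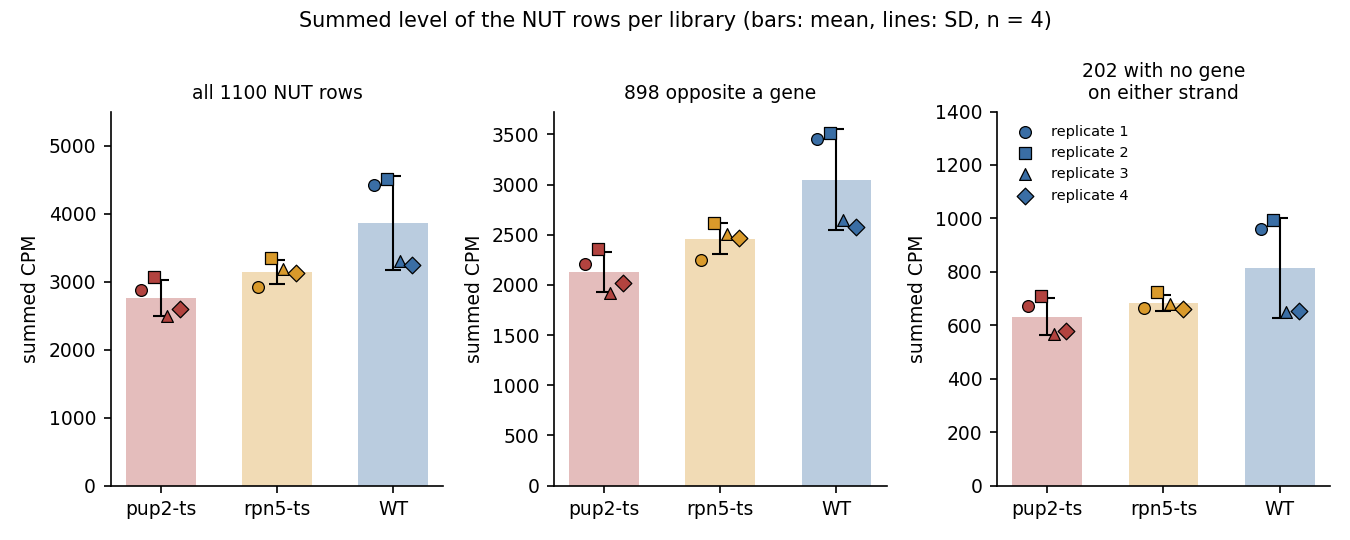
Summed level of NUT rows in each library, in CPM, for all 1100 members, the 898 opposite a gene and the 202 with no gene on either strand. Bars show the mean of 4 libraries, lines the SD and points the libraries. In the left panel the 4 pup2-ts points (2489 to 3073 CPM) lie below all 4 WT points (3237 to 4506 CPM), and WT replicates 1 and 2 lie above WT replicates 3 and 4.

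Many NUT rows were lower in the core-particle mutant than in WT, and few were higher. Of the 1100 members, 1008 had enough counts to be tested among 11733 features. At an adjusted p under 0.05, 247 were lower in pup2-ts, where 14% of all features tested were called lower, and 22 were higher, where 6.76% of all features were called higher. The median log2 fold change was -0.59 over tested members, -0.16 over all features tested and -0.02 over protein-coding rows, and 866 tested members had a negative value. Scaled by all rows in place of the protein-coding rows, these medians were -0.43 for members and -0.00 for all features. In 286 members every pup2-ts library lay below every WT library (16.4% of all features did so), and in 25 every one lay above (8.48%). With the replicate number as a block, 425 members were lower and 30 higher (27.5% and 13% of all features). Without the library labelled rpn5-ts replicate 1, which shares the fit, 253 were lower and 23 higher (14% and 6.8% of all features). Leaving out pup2-ts replicate 3, pup2-ts replicate 4 or WT replicate 2 brought the 269 calls in both directions (20.7% of all features) to 166, 173 and 165. The shares of all features called fell too, to 12.8%, 12.6% and 13.9%.

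**Figure D2:**
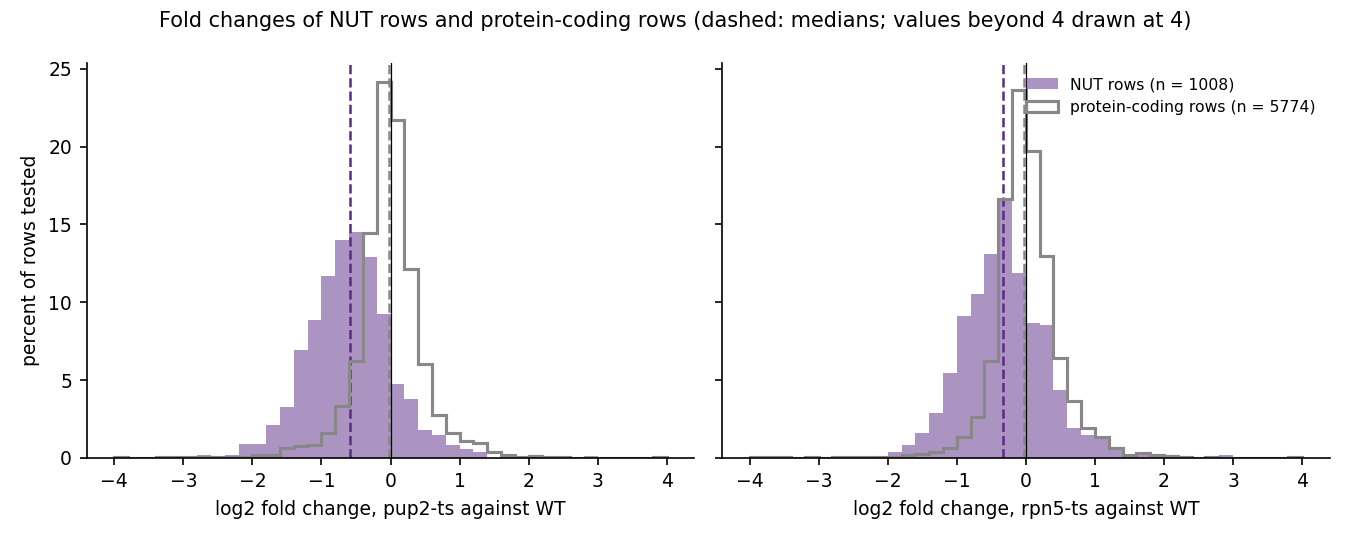
Distribution of log2 fold changes in pup2-ts against WT (left) and rpn5-ts against WT (right) for 1008 NUT rows (filled) and 5774 protein-coding rows (outline), as a percentage of the rows tested. Dashed lines mark the medians, which for NUT rows were -0.59 in pup2-ts and -0.33 in rpn5-ts.

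The largest fall in pup2-ts among members with a group mean of at least 2 CPM and groups that did not overlap was that of NUT0961 (chrV:131968-135311, minus strand). It covers the antisense strand of GLC3, the glycogen branching enzyme, and overlaps SUT504. NUT0961 had 2.89, 2.18, 1.77 and 1.44 CPM in pup2-ts, 2.37, 4.90, 9.54 and 8.81 CPM in rpn5-ts, and 10.004, 14.6, 27.0 and 21.4 CPM in WT. Every mutant library was below every WT library, and replicates 3 and 4 were above replicates 1 and 2 in both rpn5-ts and WT. The log2 fold change was -3.13 ± 0.45 (SE) in pup2-ts (adjusted p = 0.00059) and -1.52 in rpn5-ts (adjusted p = 0.031; without the library labelled replicate 1, -1.23, adjusted p = 0.042). The sense gene moved the other way, with a log2 fold change of GLC3 of 0.76 in pup2-ts (adjusted p = 0.0058).

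NUT0088 (chrIV:57014-60567, plus strand), the first sequence printed above, lies over 89.2% of its length opposite HBT1, whose product is placed at the tip of mating projections. It had 1.10, 1.52, 1.01 and 1.21 CPM in pup2-ts, 1.23, 1.37, 1.21 and 0.637 CPM in rpn5-ts, and 5.98, 8.66, 7.93 and 7.87 CPM in WT. All 8 mutant libraries lay below all WT libraries, with no split between replicate pairs. It fell by 2.65 ± 0.24 on the log2 scale in pup2-ts (adjusted p = 2.4e-05) and by 2.76 ± 0.24 in rpn5-ts (adjusted p = 3.2e-05; -2.81 without the library labelled replicate 1). NUT0760 (chrXVI:76656-79585, plus strand) runs opposite GYP5, which codes for a GTPase-activating protein of Rab-type GTPases in secretion. Its levels were 6.67, 6.44, 3.23 and 3.80 CPM in pup2-ts, 7.0, 9.70, 8.10 and 8.86 CPM in rpn5-ts, and 23.6, 23.7, 21.9 and 19.1 CPM in WT. The groups of each mutant and WT did not overlap, and pup2-ts was lowest. The log2 fold changes were -2.13 ± 0.23 in pup2-ts (adjusted p = 9.7e-05) and -1.39 ± 0.22 in rpn5-ts (adjusted p = 0.0021).

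The other large falls in pup2-ts had log2 fold changes of -2.09 to -2.72. NUT1214 lies opposite DGR2, NUT0449 opposite OCT1 (a peptidase of mitochondrial protein import) and NUT0816 opposite ARR2 (arsenate reductase). NUT1187 has no gene on either strand, and its 3.06, 3.12, 1.56 and 1.81 CPM in pup2-ts and 3.05, 3.39, 3.82 and 4.72 CPM in rpn5-ts stood against 6.23, 9.25, 16.4 and 10.8 CPM in WT. NUT0526, opposite COA4 (an assembly factor of cytochrome c oxidase), had 0.481, 0.585, 0.521 and 0.464 CPM in pup2-ts against 5.48, 1.14, 1.11 and 1.03 CPM in WT, so that WT replicate 1 stood far above the others. Without WT replicate 1 its log2 fold change of -2.09 became -1.09 (adjusted p = 0.0072).

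Among the members higher in pup2-ts with a group mean of at least 2 CPM and groups that did not overlap, NUT0336 (chrVIII:198591-201365, plus strand) had the largest rise. It runs opposite AAP1, an aminopeptidase gene, and starts 274 bases from INM1, the gene of an inositol monophosphatase, on the other strand. It had 4.16, 4.41, 5.04 and 5.52 CPM in pup2-ts, 2.07, 11, 9.0 and 10.1 CPM in rpn5-ts, and 1.15, 1.11, 0.830 and 0.993 CPM in WT. All mutant libraries were above all WT libraries, and the library labelled rpn5-ts replicate 1 was the lowest of the mutants. The log2 fold change was 2.22 ± 0.41 in pup2-ts (adjusted p = 0.0030) and 2.96 ± 0.41 in rpn5-ts (adjusted p = 0.00089), or 3.29 without that library (adjusted p = 3.1e-06). NUT0689 (chrXV:202703-204520, plus strand), opposite the riboflavin synthesis gene RIB2, had 3.61, 2.65, 5.49 and 5.06 CPM in pup2-ts, 2.74, 3.44, 4.0 and 3.45 CPM in rpn5-ts, and 1.17, 1.07, 0.554 and 0.815 CPM in WT. It was higher in every mutant library, by a log2 fold change of 2.20 ± 0.28 in pup2-ts (adjusted p = 0.00031) and 1.89 in rpn5-ts (adjusted p = 0.0013; 1.99 without the library labelled replicate 1).

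NUT1382 and NUT1127, abundant members with no protein-coding row on either strand, also rose. NUT1382 overlaps AS_YOL156W and AS_YOL155W-A on its strand, rows named as antisense to genes that no protein-coding row represents at that place. NUT1382 (chrXV:24539-27707, minus strand), in the interval between HPF1, a cell wall mannoprotein gene, and IMA2, an isomaltase gene, had 23.3, 21.6, 42.0 and 39.9 CPM in pup2-ts, 23.1, 26, 38.0 and 37.3 CPM in rpn5-ts, and 15.0, 15.5, 11 and 9.82 CPM in WT. NUT1127 (chrIX:19352-21845, minus strand) had 17.8, 17.2, 26.9 and 28.6 CPM in pup2-ts, 16.6, 21.5, 25.5 and 24.5 CPM in rpn5-ts, and 12, 12.4, 8.35 and 8.79 CPM in WT. In both, replicates 3 and 4 were above replicates 1 and 2 in the mutants and below them in WT. The log2 fold changes in pup2-ts were 1.30 for NUT1382 (adjusted p = 0.0047) and 1.12 for NUT1127 (adjusted p = 0.0038). NUT0026, NUT1340 (opposite the autophagy gene ATG2), NUT0563 and NUT0671 completed the 8 largest rises at that level, at 1.14 to 1.68.

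**Figure D3:**
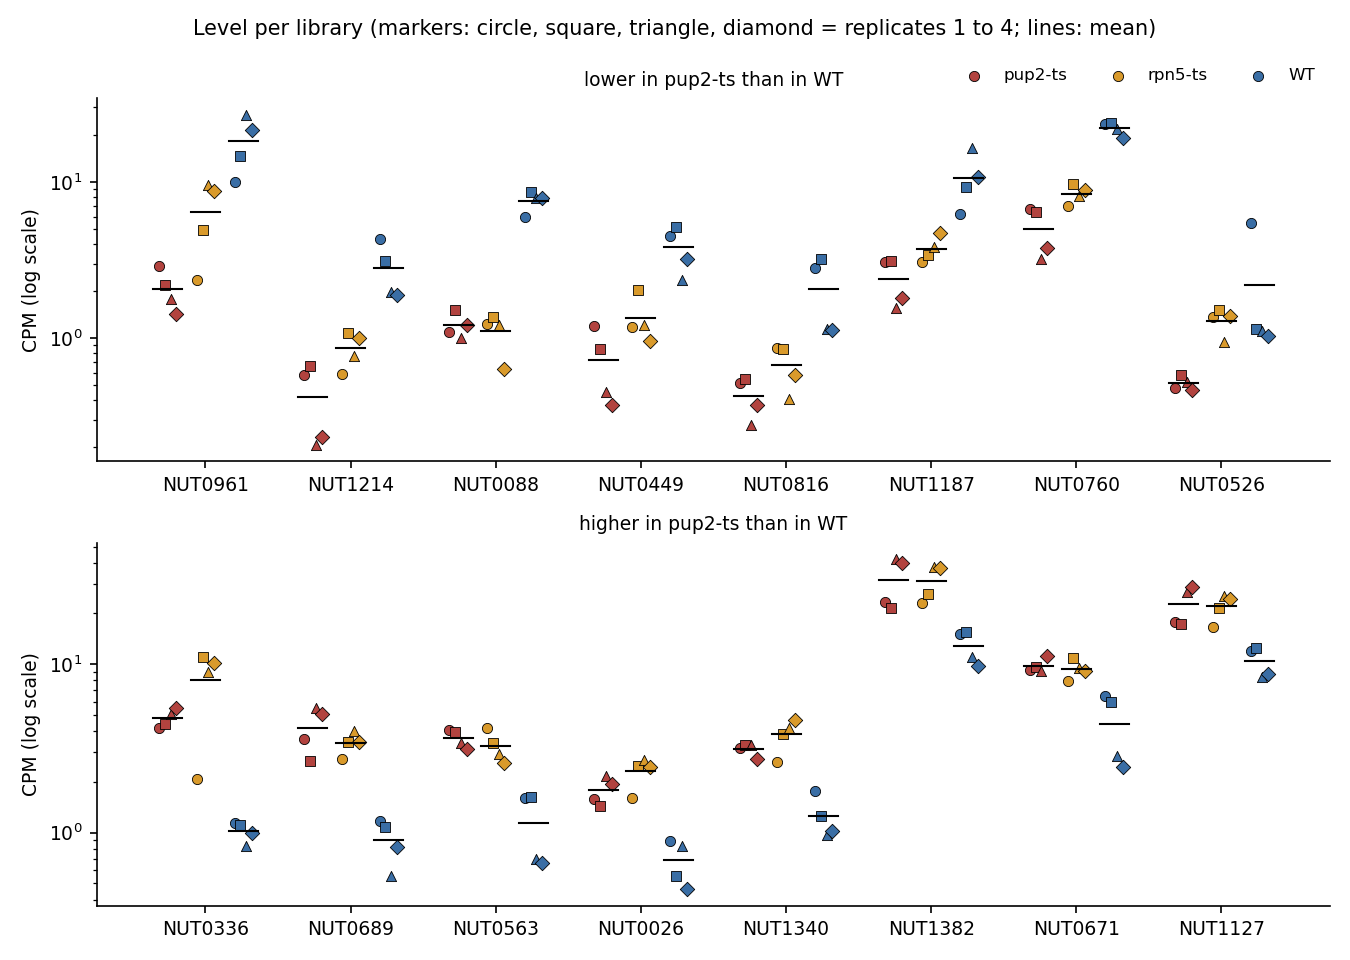
Levels of the 8 members with the largest falls (top) and the 8 with the largest rises (bottom) in pup2-ts against WT, in CPM on a log axis. Each point is a library, its shape the replicate number, and each line the mean of 4 libraries. NUT0088 stands at 1.01 to 1.52 CPM in pup2-ts and 5.98 to 8.66 CPM in WT.

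Over all 4 replicates, more NUT rows were lower than higher in the lid mutant. Of 1008 members, 99 were lower in rpn5-ts than in WT, where 7.17% of all features were called lower, and 25 were higher, where 5.91% were called higher. Without the library labelled rpn5-ts replicate 1 the counts were 88 lower and 36 higher (7.18% and 7.58% of all features). Of the 99 lower members 79 stayed called lower without it, and of the 25 higher 24 stayed called higher. The median log2 fold change was -0.33 over tested members (-0.28 without that library, and -0.23 when scaled by all rows) and -0.10 over all features tested. With the replicate number as a block, 248 were lower and 41 higher (21.1% and 13.8% of all features). Every rpn5-ts library lay below every WT library in 174 members (11.9% of all features) and above in 28 (8.21%). The 124 calls in both directions (13.1% of all features) came to 79, 66 and 66 without rpn5-ts replicate 2, 3 or 4. The shares of all features called were then 8.53%, 7.11% and 7.57%. Without WT replicate 2 the calls among members came to 72, where 8.68% of all features were called. The median differed between the replicate pairs, with -0.08 when replicates 3 and 4 alone were fitted and -0.52 with replicates 1 and 2 alone. Replicates 3 and 4 alone gave 154 members lower and 123 higher of 949 tested, where 24.5% and 24.7% of all features were called.

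Of members not yet named, NUT0790 (chrXVI:491943-493069, plus strand) lies wholly opposite PHO85, a cyclin-dependent kinase gene. It had 2.25, 1.79, 1.71 and 1.33 CPM in rpn5-ts, 1.68, 2.30, 1.11 and 1.58 CPM in pup2-ts, and 4.78, 5.75, 5.35 and 6.20 CPM in WT. Both mutants lay below WT in every library, with log2 fold changes of -1.63 in rpn5-ts (adjusted p = 0.00097) and -1.73 in pup2-ts (adjusted p = 0.0004). NUT0263, opposite the glucosidase gene CWH41, fell by 1.76 in rpn5-ts (adjusted p = 0.0024), and NUT1349 and NUT0536 by 1.81 and 1.62, of which the first no longer passed without rpn5-ts replicate 3 or 4 or WT replicate 2, and the second without rpn5-ts replicate 2, 3 or 4. NUT1330 (chrXIV:66131-68428, minus strand) lies opposite TRF5, which codes for a poly(A) polymerase of the TRAMP complex. It had 2.31, 3.86, 3.15 and 2.76 CPM in rpn5-ts, 2.27, 1.76, 2.22 and 1.95 CPM in pup2-ts, and 1.56, 1.87, 0.646 and 1.15 CPM in WT. The rpn5-ts libraries lay above those of WT, by a log2 fold change of 1.19 (adjusted p = 0.016), and in pup2-ts the value was 0.64 (adjusted p = 0.13). NUT0234, opposite the glycogen synthase gene GSY1, had 2.5, 3.53, 6.66 and 5.94 CPM in rpn5-ts against 2.18, 2.11, 2.21 and 1.67 CPM in WT, a log2 fold change of 1.19 (adjusted p = 0.028), which no longer passed without rpn5-ts replicate 3 or 4 or without WT replicate 1, 2 or 4.

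Both mutants were compared with the same WT libraries. The values of each mutant are therefore given side by side, and calls shared by both are not counted.

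Set directly against each other over all 12 libraries with edgeR, the mutants gave no call among NUT rows, and other fits gave some. With edgeR 0 of 1008 members were higher and 0 lower in rpn5-ts than in pup2-ts, where 0.017% of all features were called in each direction, and 116 had an unadjusted p under 0.05. DESeq2 called 2, NUT0961 and NUT1310. Without the library labelled rpn5-ts replicate 1, edgeR called 1, NUT0336 (0.289% of all features were then called higher, and 0.409% by DESeq2). These 3 are named because they are few, after their values were seen. NUT1310 (chrXIII:575121-577507, minus strand, opposite CVM1) had 2.04, 2.35, 2.61 and 2.65 CPM in rpn5-ts, 1.27, 1.29, 0.904 and 0.928 CPM in pup2-ts, and 3.10, 2.84, 2.26 and 1.74 CPM in WT. Its rpn5-ts libraries lay above those of pup2-ts, and the log2 difference by DESeq2 was 1.12 (adjusted p = 0.0094). The median log2 difference between the mutants was 0.24 over tested members, and in 61 members every rpn5-ts library lay above every pup2-ts library (3.67% of all features), against 2 below (1.59%). Replicates 3 and 4 fitted alone gave 187 members higher and 5 lower in rpn5-ts (16.8% and 9.29% of all features). The block gave 0 calls, and 58 once the library labelled rpn5-ts replicate 1 was left out (5.67% of all features).

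NUT rows that share a start region with a gene on the other strand could be set beside that gene. A gene's start lay within 300 bases of the start of 636 members, of which 573 had both partners tested. Across these pairs the Spearman correlation of the log2 fold changes was 0.13 in pup2-ts and 0.21 in rpn5-ts, a description over pairs that share libraries and, in part, chromosome regions. Both partners passed the test in 31 pairs in pup2-ts, of which 8 were both higher, 17 both lower and 6 opposite. In rpn5-ts 11 pairs did, of which 3 were both higher, 6 both lower and 2 opposite. Taken alone, 131 of the 573 members were lower and 16 higher in pup2-ts, where 14% and 6.76% of all features were. In rpn5-ts 43 members were lower, near the share of all features (7.17%), and 15 were higher (5.91% of all features). Of the genes 40 were lower and 53 higher in pup2-ts, and 36 and 34 in rpn5-ts. Whether the partners of a pair are linked was not tested. The members' median log2 fold change in pup2-ts was -0.28 beside the 53 genes called higher, -0.69 beside the 40 called lower and -0.57 beside the 480 not called.

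Proteasome genes were among those higher in the mutants. They are activated by Rpn4, a factor that binds the proteasome-associated control element GGTGGCAAA. Of 33 proteasome genes looked up, 4 had a member starting within 300 bases on the other strand, and all 4 regions between the starts hold that element once. It was found, on either strand, in 27 of the 6594 stretches of 300 bases between genes (0.409%) and in 8 of the 636 divergent regions (1.26%). These 8 include the 4. The element is that of proteasome genes, so choosing such genes already favours its presence beside them. Any part of Rpn4 or of the element in the levels of these members was not tested. The regions are printed 5′ to 3′ on the strand of the NUT row, which makes the gene's element read TTTGCCACC, in capitals. They are chrXIII:86761-87056 (plus) for NUT0563 and PRE8, chrIV:1261400-1261576 (minus) for NUT0935 and RPT3, chrXV:1018801-1018974 (plus) for NUT0748 and PRE10, and chrVIII:164765-164939 (plus) for NUT0330 and RPN1, from the R64 genome of RefSeq.
NUT0563 and PRE8: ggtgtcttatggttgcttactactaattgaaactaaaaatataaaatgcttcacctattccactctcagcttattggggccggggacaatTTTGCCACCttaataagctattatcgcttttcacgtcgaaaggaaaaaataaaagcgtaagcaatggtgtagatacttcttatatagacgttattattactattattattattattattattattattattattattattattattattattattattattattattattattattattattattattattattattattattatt
NUT0935 and RPT3: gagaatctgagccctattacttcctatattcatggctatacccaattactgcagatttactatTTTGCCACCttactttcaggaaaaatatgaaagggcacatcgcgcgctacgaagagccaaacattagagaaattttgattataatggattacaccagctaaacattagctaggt
NUT0748 and PRE10: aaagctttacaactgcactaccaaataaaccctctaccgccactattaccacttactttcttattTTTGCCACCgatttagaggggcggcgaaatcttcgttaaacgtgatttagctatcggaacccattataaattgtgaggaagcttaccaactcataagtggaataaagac
NUT0330 and RPN1: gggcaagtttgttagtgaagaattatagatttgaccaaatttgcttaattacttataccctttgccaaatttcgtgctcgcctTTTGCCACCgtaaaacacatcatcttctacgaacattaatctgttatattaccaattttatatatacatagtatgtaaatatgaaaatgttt

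NUT0563 (chrXIII:87057-88451, plus strand) starts 296 bases from PRE8, on the other strand, which codes for a subunit of the core particle's alpha ring. NUT0563 runs opposite RPM2, a subunit gene of mitochondrial RNase P. It had 4.06, 3.98, 3.41 and 3.15 CPM in pup2-ts, 4.16, 3.39, 2.92 and 2.60 CPM in rpn5-ts, and 1.59, 1.63, 0.692 and 0.656 CPM in WT. All mutant libraries were above all WT libraries, with log2 fold changes of 1.68 ± 0.30 in pup2-ts (adjusted p = 0.0028) and 1.52 ± 0.31 in rpn5-ts (adjusted p = 0.0070; 1.38, adjusted p = 0.017, without the library labelled replicate 1). PRE8 itself had log2 fold changes of 1.09 in pup2-ts and 0.93 in rpn5-ts, while RPM2 on NUT0563's other strand had -0.80 in pup2-ts (adjusted p = 0.0094). NUT0935 (chrIV:1259768-1261399, minus strand), beside the base ATPase gene RPT3, had 7.90, 8.70, 7.58 and 6.87 CPM in pup2-ts, 6.91, 7.44, 6.84 and 5.25 CPM in rpn5-ts, and 6.01, 5.30, 3.23 and 2.98 CPM in WT. The pup2-ts libraries lay above those of WT, whereas rpn5-ts replicate 4 lay below WT replicates 1 and 2. The log2 fold change was 0.83 ± 0.23 in pup2-ts (adjusted p = 0.023) and 0.60 in rpn5-ts (adjusted p = 0.10; 0.016 with the replicate block), beside 1.18 and 0.95 for RPT3.

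NUT0748 (chrXV:1018975-1019926, plus strand), beside the alpha-ring gene PRE10, split by replicate. It had 4.85, 5.97, 8.86 and 9.0 CPM in pup2-ts, 4.72, 7.86, 9.27 and 8.12 CPM in rpn5-ts, and 6.73, 4.4, 2.63 and 2.66 CPM in WT. In replicates 3 and 4 both mutants were far above WT, and in replicates 1 and 2 the groups overlapped, with overall values of 0.80 in pup2-ts and 0.86 in rpn5-ts (adjusted p = 0.11 in each). NUT0330 (chrVIII:164940-167512, plus strand), beside RPN1, a scaffold subunit of the base, had -0.19 in pup2-ts (adjusted p = 0.71) and -0.27 in rpn5-ts (adjusted p = 0.60), while RPN1 had 1.06 in pup2-ts. Its 17.1, 14.5, 9.87 and 7.93 CPM in pup2-ts and 15.2, 13.3, 9.40 and 8.81 CPM in rpn5-ts overlapped the 19.2, 18.5, 9.69 and 8.88 CPM in WT. The other 4 divergent regions with the element lie before REB1, CDC48, LSB3 and NAB2, and the log2 fold changes of their members in pup2-ts were -0.41 for NUT0025, 0.59 for NUT0096, 0.30 for NUT0235 and -1.21 for NUT0252 (adjusted p = 0.024). NAB2, a poly(A)-binding protein gene, had 0.48. Members that run opposite proteasome genes were NUT1070 (PRE9), NUT1327 (PRE5), NUT0200 (PUP3) and NUT0966 (PRE1). NUT1327 fell by 0.65 in pup2-ts (adjusted p = 0.029), where PRE5 had 1.07. In rpn5-ts NUT1327 had -0.77 (adjusted p = 0.020) and PRE5 0.96. NUT0200 rose by 1.02 in rpn5-ts (adjusted p = 0.019), where PUP3 had 1.17. In pup2-ts NUT0200 had 0.43 (adjusted p = 0.24) and PUP3 1.40. NUT1070 and NUT0966 passed in neither mutant.

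A pair that was lower on both sides was NUT1204 (chrXI:24152-24939, minus strand) and URA1, the dihydroorotate dehydrogenase gene of pyrimidine synthesis. Ppr1, the activator of pyrimidine genes, recognises a palindrome with a spacer of 6 bases. The region between the starts, chrXI:24940-25172 (minus strand, R64, RefSeq), holds CGGNNNNNNCCG at 2 places, in capitals, which reads alike on both strands. It was present in 106 of the 6594 stretches between genes (1.61%) and in 5 of the 636 divergent regions (0.786%).
NUT1204 and URA1: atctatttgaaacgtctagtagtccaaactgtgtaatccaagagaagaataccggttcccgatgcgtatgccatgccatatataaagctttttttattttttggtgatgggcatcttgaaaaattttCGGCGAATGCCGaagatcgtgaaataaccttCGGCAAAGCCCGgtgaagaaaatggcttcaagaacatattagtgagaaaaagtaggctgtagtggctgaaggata

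NUT1204 had 1.24, 1.05, 0.765 and 1.07 CPM in pup2-ts, 0.987, 1.55, 1.12 and 1.43 CPM in rpn5-ts, and 3.69, 4.30, 3.92 and 4.64 CPM in WT. URA1 had 323, 324, 181 and 178 CPM in pup2-ts, 330.4, 301, 174 and 171 CPM in rpn5-ts, and 2297, 2840, 1884 and 2232 CPM in WT. Neither overlapped WT in any mutant library. The log2 fold changes of NUT1204 were -2.0 ± 0.21 in pup2-ts (adjusted p = 6.8e-05) and -1.71 ± 0.21 in rpn5-ts (adjusted p = 0.00031; -1.59 without the library labelled replicate 1), beside -3.20 and -3.24 for URA1. Both mutants carry URA3 and WT does not, and its part in this pair was not tested. Of the other pairs with both partners called in pup2-ts, NUT0026 and RFS1 rose by 1.40 and 1.14, NUT1064 and the rhomboid protease gene PCP1 by 1.06 and 1.23, and NUT1438 and the oxysterol-binding protein gene HES1 had -1.17 and -1.66. The 6 pairs with opposite signs included NUT1012 and SPT16, a histone chaperone gene, at -1.74 and 0.52, NUT1091 and VPS29 at -1.08 and 0.89, and NUT1283 and the transporter gene ATR1 at -0.70 and 1.23.

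**Figure D4:**
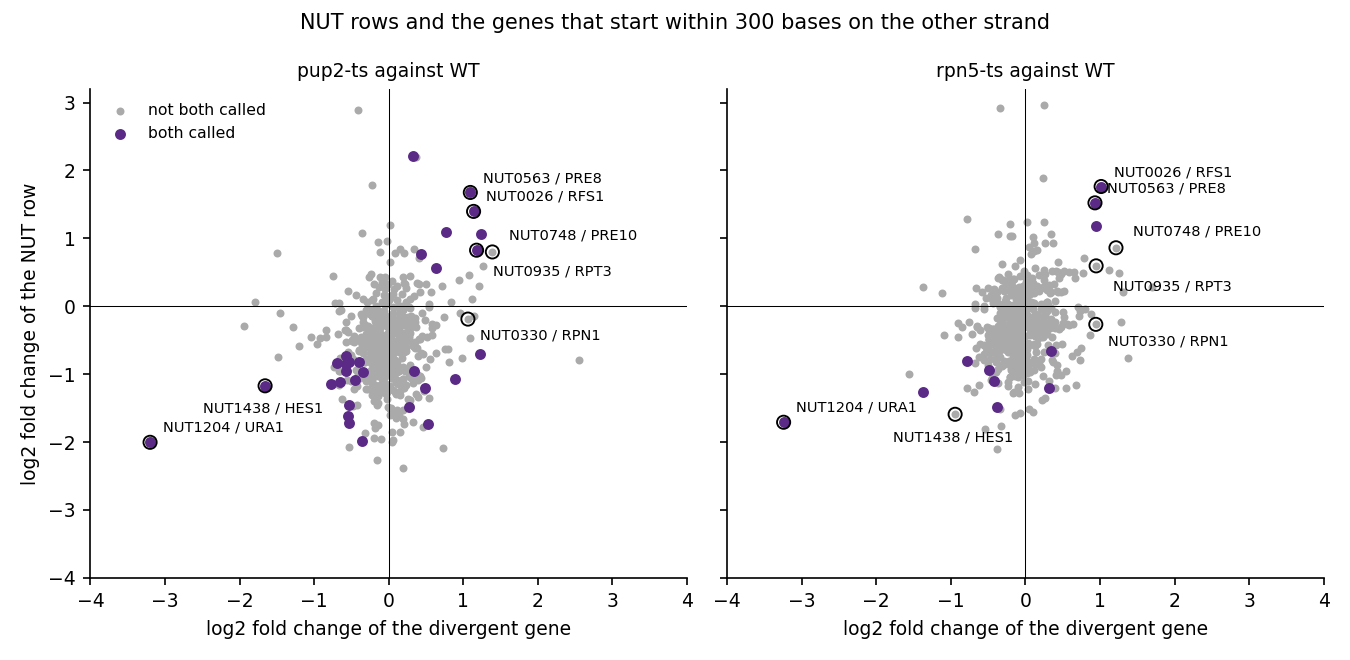
Log2 fold change of the NUT row (vertical) against that of the gene starting within 300 bases on the other strand (horizontal), in pup2-ts (left) and rpn5-ts (right) against WT, with 573 pairs. Dark points have both partners past the test, and rings mark named pairs. NUT1204 and URA1 lie farthest to the left in both panels, and NUT0563 and PRE8 at the upper right. The pair of NUT0041 and LYS2 lies outside the left panel and is not drawn.

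Members beside marker loci differed between the strains. NUT0041 (chrII:474297-476987, plus strand) starts 283 bases from LYS2, which lys2Δ0 removes in the mutants. It had 5.50, 4.80, 8.41 and 7.47 CPM in pup2-ts, 9.84, 6.69, 9.90 and 8.75 CPM in rpn5-ts, and 17.2, 18.2, 18.6 and 16.6 CPM in WT. LYS2 had 0, 0, 0.209 and 0.186 CPM in pup2-ts, 212, 0.0471, 0.180 and 0 CPM in rpn5-ts, and 122, 119, 205 and 182 CPM in WT. NUT0041 was lower in every mutant library, the library labelled rpn5-ts replicate 1 included, although LYS2 was present there. The log2 fold changes were -1.43 ± 0.19 in pup2-ts (adjusted p = 0.00042) and -1.0 in rpn5-ts (adjusted p = 0.0055; -1.06 without that library). NUT1432 (chrXV:721818-722636, minus strand) lies opposite HIS3, a gene whose name is also in the can1Δ cassette. It had 2.82, 3.28, 2.78 and 4.18 CPM in pup2-ts, 3.05, 3.25, 4.0 and 3.61 CPM in rpn5-ts, and 1.54, 1.66, 1.85 and 1.74 CPM in WT. Its mutant libraries were all above those of WT, by 0.94 in pup2-ts (adjusted p = 0.0038) and 1.03 in rpn5-ts (adjusted p = 0.0035), beside 0.79 for HIS3 in pup2-ts. The part of the marker loci in these values was not tested, nor was that of HIS3 reads counted on the other strand in NUT1432.

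A further set of members could be read against the gene they run opposite. The read density of such a member was at the median 2.29% of that of its opposite gene, with 272 members under 1% and 28 above the gene. Some reads of a gene may be counted on the other strand, so part of a member's counts may be the gene's. The lowest was NUT1218, at 0.0614% of CWP2, an abundant cell wall protein gene. Across 829 members and their opposite genes the Spearman correlation of the log2 fold changes was 0.061 in pup2-ts and 0.049 in rpn5-ts. Of the 217 members opposite a gene that were lower in pup2-ts, the opposite gene was higher for 21, lower for 21 and not called for 175. Over all protein-coding rows tested, 9.72% were higher and 7.48% lower in pup2-ts. NUT0966, opposite the proteasome core gene PRE1, had a log2 fold change of 0.11 in pup2-ts, where PRE1 had 1.62.

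Falls were counted by kind of member, with no test between kinds, and stand against the 14% of all features called lower and the 6.76% called higher in pup2-ts. Opposite a gene, 217 of 831 tested were lower and 17 higher in pup2-ts, with a median of -0.59, and with no gene on either strand 30 of 177 were lower and 5 higher, with a median of -0.60. Of 404 that overlap a CUT row 110 were lower and 7 higher (median -0.68), of 289 that overlap a SUT row 75 and 6 (median -0.51), and of 182 with no other non-coding row 36 and 7 (median -0.57). Of 72 members that start within 200 bases after a gene on their own strand, 16 were lower and 0 higher, with a median of -0.68. Of 24 that overlap a snoRNA row, 3 were lower in pup2-ts, near the share of all features, and 0 in rpn5-ts. CUT rows that overlap no gene or member on their strand had a median of -0.78 in pup2-ts over 137 tested, and such SUT rows -0.39 over 359. A neighbour downstream gave a few further pairs. NUT0816 ends 9 bases before ARR3, an arsenite transporter gene, which had 2.99, 3.43, 1.91 and 1.44 CPM in pup2-ts and 10.1, 9.46, 4.24 and 5.09 CPM in WT. NUT0816 itself had 0.516, 0.546, 0.278 and 0.371 CPM in pup2-ts and 2.79, 3.22, 1.15 and 1.13 CPM in WT, and both fell, by 2.26 and 1.56 on the log2 scale.

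Replicates 3 and 4 differed from replicates 1 and 2 in all 3 strains. Over the 3 groups 329 members were lower and 43 higher in replicates 3 and 4, where 32.2% and 19.2% of all features were called, with a median log2 difference of -0.27. Of the 24 members that overlap a snoRNA row 21 were lower, with a median of -0.79. One was NUT1169, which spans SNR37 and had, in replicates 3 and 4 against replicates 1 and 2, 2.40 and 2.13 against 6.46 and 8.93 CPM in pup2-ts, 2.65 and 2.65 against 7.37 and 8.01 CPM in rpn5-ts, and 4.11 and 4.25 against 6.4 and 9.74 CPM in WT. The opposite was seen in NUT0820 (chrI:31418-36376, minus strand), opposite the glutamate dehydrogenase gene GDH3, with 26.2 and 27.5 CPM in replicates 3 and 4 of pup2-ts against 9.04 and 8.31 CPM in its replicates 1 and 2. The effect of the mutation also depended on the pair of replicates. In pup2-ts against WT it was more positive in replicates 3 and 4 than in 1 and 2 for 37 members and more negative for 6 (4.46% and 2.21% of all features), and in rpn5-ts against WT for 24 and 0 (1.71% and 0.358%), with a median difference of 0.45.

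Genes of the Nrd1 pathway itself did not pass the test in the edgeR fit of the 3 groups without a block. Of 18 tested genes of Nrd1-Nab3-Sen1 termination 0 passed in either mutant by edgeR, with 2 in pup2-ts and 1 in rpn5-ts at an unadjusted p under 0.05, and 0 in either by DESeq2. NRD1 had 59.0, 62.8, 136 and 137 CPM in pup2-ts, 71.5, 63.7, 129 and 143 CPM in rpn5-ts, and 224, 129, 119 and 121 CPM in WT. In replicates 1 and 2 the mutants were below WT and in replicates 3 and 4 above it, and its log2 fold change was -0.59 ± 0.35 in pup2-ts (adjusted p = 0.26). NAB3 averaged 193 ± 99.2 CPM in pup2-ts, 184.5 ± 94.2 CPM in rpn5-ts and 147 ± 69.8 CPM in WT (SD, n = 4 each), a log2 fold change of 0.40 in pup2-ts (adjusted p = 0.59). With the replicate block, NAB3 (adjusted p = 0.0037) and GLC7 were higher in pup2-ts, where 13% of all features were. In rpn5-ts NAB3 was then higher and PAF1 and REF2 were lower, where 13.8% and 21.1% of all features were.

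Of 18 genes of the nuclear exosome and TRAMP, 0 passed in either mutant by edgeR, with 1 in pup2-ts and 4 in rpn5-ts at an unadjusted p under 0.05. DESeq2 called 1 higher in pup2-ts and 2 lower in rpn5-ts. With the block 1 was higher and 2 lower in pup2-ts (13% and 27.5% of all features), and 9 were lower in rpn5-ts (21.1%). RRP6, the exosome's nuclear exonuclease, averaged 159.9 ± 4.51 CPM in pup2-ts, 138 ± 12.7 CPM in rpn5-ts and 171 ± 11.5 CPM in WT (SD, n = 4 each), with a log2 fold change of -0.32 in rpn5-ts (adjusted p = 0.051; -0.38, adjusted p = 0.023, without the library labelled replicate 1). Of 13 genes of cytoplasmic decay 0 passed by edgeR, with 3 in each mutant at an unadjusted p under 0.05, and DESeq2 called 1 higher in pup2-ts and 1 lower in rpn5-ts. With the replicate block 3 were higher in pup2-ts, among them the exonuclease gene XRN1 (adjusted p = 0.00013), and 1 lower, and in rpn5-ts 2 were higher and 2 lower. Without the library labelled rpn5-ts replicate 1, NMD2, a gene of nonsense-mediated decay, was lower in rpn5-ts (adjusted p = 0.028). Of 13 genes of the torpedo and poly(A) machinery, 3 were higher in pup2-ts: RTT103, a partner of the torpedo exonuclease, at 0.47 (adjusted p = 0.0053), NAB2 at 0.48 (adjusted p = 0.015) and the cleavage factor gene CFT2 at 0.68 (adjusted p = 0.036). RTT103 was also higher in rpn5-ts, at 0.33 (adjusted p = 0.041), and 0 of the 13 were called without the library labelled replicate 1. With the replicate block 4 were higher in pup2-ts (13% of all features). In rpn5-ts 3 were then higher (RTT103, CFT2 and RAT1) and 2 lower (RAI1 and YSH1), where 13.8% and 21.1% of all features were.

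Of 8 genes known for attenuation by Nrd1, 1 was higher and 1 lower in pup2-ts (6.76% and 14% of all features). In rpn5-ts 1 was higher (5.91%). With the replicate block URA2, of pyrimidine synthesis, was also lower in pup2-ts (adjusted p = 0.0011) and in rpn5-ts (adjusted p = 0.0012). Of all features 27.5% and 21.1% were lower in that fit. IMD2, an IMP dehydrogenase gene with close paralogs, had 42.3, 41.9, 71.8 and 69.6 CPM in pup2-ts, 55.7, 67.2, 189.5 and 178 CPM in rpn5-ts, and 65.7, 122, 274 and 205 CPM in WT. The pup2-ts and WT libraries overlapped, and within each replicate pair pup2-ts was below WT, with a log2 fold change of -1.56 (adjusted p = 0.036). RPL9B, a ribosomal protein gene with a near-identical copy that may share its reads, averaged 646 ± 38.8 CPM in pup2-ts, 571 ± 79.6 CPM in rpn5-ts and 412 ± 57.1 CPM in WT (SD, n = 4 each). Its log2 fold changes were 0.65 in pup2-ts (adjusted p = 0.0064) and 0.47 in rpn5-ts (adjusted p = 0.040), or 0.38 without the library labelled replicate 1 (adjusted p = 0.080). Without that library FKS2, a subunit gene of glucan synthase, was higher in rpn5-ts, at 0.87 (adjusted p = 0.0079).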

How the data were processed

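Polyadenylated RNA of 12 yeast cultures was sequenced, and the authors deposited 1 table of raw counts per annotated row, with 1 column per library. Per the labels' protocols, hot acid phenol and a DNAse step gave the RNA, and a KAPA mRNA HyperPrep kit the libraries. RNA without a poly(A) tail is therefore poorly represented. The submitters' processing notes name the build sacCer3, the aligner STAR 2.5.2b, Subread 1.5.1 and its featureCounts program. How reads on overlapping rows, on the other strand or at several places were counted is not given in the sources used here. Columns were matched to samples by the names in the labels, and LEU2 was not analysed here. The R64 gene table of RefSeq matched 5588 of 5836 protein-coding rows, of whose intervals 92.0% contain the R64 coding interval, and 99.9% of 5585 genes had ATG at the R64 start, so R64 sequence was read by the table's coordinates.

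Library sizes and TMM factors (0.90 to 1.18) came from the protein-coding rows. Counts were fitted with edgeR 4.0.16 in R 4.3.3 (filterByExpr, robust quasi-likelihood F test, two-sided, limma 3.58.1 loaded), with the 3 groups together, and p-values were adjusted over all 11733 features by the Benjamini-Hochberg method, with calls at 0.05. The same fit was run without the filter for all 1100 members, which gave 22 higher and 246 lower in pup2-ts and 24 and 100 in rpn5-ts. DESeq2 1.42.0, other factors, other filters, the replicate number as a block and each library left out in turn were alternatives. Same-numbered libraries deviated together, with 12 correlations of 0.14 to 0.58 between their deviations from the group means. Libraries of different numbers were not compared across groups. The correlations therefore cannot tell pairing by number from the split between replicates 1 and 2 and replicates 3 and 4. The main fit has no block, and the block is given as an alternative. By chi-square tests no 2 libraries of the same group held the same counts within sampling noise. On simulated counts for pup2-ts against WT (11630 features, 50 changed at each fold), 14% of 1.5-fold, 60% of 2-fold, 88% of 3-fold and 90% of 4-fold changes were recovered, with 6 false among 132 calls.

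Named members were, by log2 fold change, the top 8 in each direction against WT (4 elsewhere) among those past the threshold, with a group mean of at least 2 CPM and groups that do not overlap, and the 8 most abundant per kilobase. For rpn5-ts they also had to pass without the library labelled replicate 1. From each gene list, genes past the threshold and up to 4 others were named. Members, lists and tests were chosen with earlier results of these data known. Pairs with proteasome genes, marker loci and URA1, the motifs, and members named outside the rule were chosen after values were seen. Replicates are separate cultures only as far as the series calls them biological, and p-values measure the spread between these libraries. Counting precision is limited by the low counts of members.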

Additional observations from a re-analysis of the deposited data

Results flagged for a closer look

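In 4 of 162 groups of 4 libraries checked, 1 library stood apart, where chance alone gives about 1 in 20. The gap of that library to its nearest neighbour, divided by the range of the group, was 0.974 for NUT0526 in WT (5.48 CPM in replicate 1 and 1.14, 1.11 and 1.03 CPM in the others), 0.888 for NUT1090 in rpn5-ts, 0.946 for NUT0490 in WT and 0.835 for NUT1467 in WT.

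For some members the effect of a mutation differed between replicates 3-4 and replicates 1-2 by a test of that difference. In pup2-ts against WT the log2 fold change was more positive in replicates 3-4 by 1.39 for NUT0689, 1.42 for NUT1382, 1.34 for NUT0671, 1.17 for NUT1127, 0.81 for NUT0820, 0.77 for NUT0821 and 1.80 for NUT0748. It was more negative there, with differences of -1.69 for NUT1187 and -1.27 for NUT0891. In rpn5-ts against WT the differences were 1.18 for NUT1382, 1.23 for NUT0671, 0.90 for NUT1127, 0.98 for NUT0820, 0.97 for NUT0821 and 1.56 for NUT0748. NUT0820 and NUT0821 share most of their bases, and the libraries of both comparisons include the same WT libraries.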

How the results depend on the processing

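Shares in brackets are those of all features called by the same fit. The number of members called in pup2-ts against WT, 269 in the report, was 455 with the replicate number as a block (40.6%), 504 with the name form as a factor (44.4%), 464 in replicates 3 and 4 alone (58.2%) and 493 with the block once the library labelled rpn5-ts replicate 1 was left out (43.2%), and 165 to 301 with 1 library left out. In rpn5-ts against WT, 124 in the report, it was 289 with the block (34.9%), 325 with the form (38.5%), 220 in replicates 1 and 2 alone (17.4%), 277 in replicates 3 and 4 alone (49.2%), 220 with the block and without that library (32.9%), 209 with DESeq2 (20.2%), and 66 to 138 with 1 library left out. In rpn5-ts against pup2-ts, 0 in the report, it was 2 with DESeq2 (0.511%), 1 with the form (0.366%), 192 in replicates 3 and 4 alone (26.1%), 58 with the block and without that library (5.67%), and 0 to 1 with 1 library left out. In replicates 3-4 against 1-2, 372 in the report (51.4%), it ran from 308 (47.4%) to 405 (52.2%) with 1 library left out. All 247 members lower and all 22 higher in pup2-ts stayed called under the block. The remaining alternatives for these counts were within 1.5 times of the values in the report. The causes were not tested. Of 952 alternatives of 40 single-member results, 930 kept direction and side of the threshold, 22 no longer passed and 0 reversed. The simulation drew features at all levels, without the split between replicate pairs, and recovered 14% of 1.5-fold and 60% of 2-fold changes. Some members with changes under 2-fold did pass, such as NUT1327 at -0.65 in pup2-ts. Rows that share bases on a strand may share reads.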

Other observations

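NUT1467 (chrXVI:179260-181141, minus strand) lies opposite DDC1, a DNA damage checkpoint gene, and starts 254 bases from RSA1, a ribosome assembly gene, on the other strand. It was under the level set for named members and is given here after its values were seen. It had 0.888, 1.52, 1.46 and 1.81 CPM in pup2-ts, 0.432, 1.60, 2.38 and 1.43 CPM in rpn5-ts, and 0.391, 0.139, 0.138 and 0.0886 CPM in WT. Every mutant library was above every WT library, with log2 fold changes of 2.89 ± 0.55 in pup2-ts (adjusted p = 0.0036) and 2.92 in rpn5-ts (adjusted p = 0.0056).

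Near chromosome ends, within 30 kilobases, lay 79 members, of which 73 were tested. In pup2-ts 12 of these were lower and 3 higher (median log2 fold change -0.52), where 14% and 6.76% of all features were called, and in rpn5-ts 9 were lower and 4 higher, where 7.17% and 5.91% were. The 282 protein-coding rows tested in the same stretches had a median of -0.05 in pup2-ts, with 55 lower and 37 higher, and in rpn5-ts 23 were lower and 31 higher.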
